A study of Mus musculus with 7 samples.

Results

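Levels of miR-9, miR-124, miR-7a and miR-7b, 4 miRNAs known for their roles in neural cell fate, were compared between mouse neocortex and astrocytoma. They were chosen by name, as mmu-miR-9, mmu-miR-124, mmu-miR-7a and mmu-miR-7b, from the 566 mouse miRNA probes of the NanoString nCounter mouse miRNA panel, version 1.3, which counts color-coded probes without amplification, and all 4 names were present. No row carried one of these names with an asterisk or an arm suffix, so only 1 strand of each precursor is analysed here. The 3 normal samples were layers II to IV of neocortex from wild-type CD1 mice at postnatal day 60, where samples 1 and 3 came from males and sample 2 from a female. The 4 tumor samples came from CD1 mice with the transgene hGFAP-HaV12-Ras, in which the human promoter of the astrocyte gene GFAP drives an activated form of Ras. Tumors 1, 2, 3 and 4 were taken at postnatal days 65, 104, 125 and 134, and tumor 2 was from a female. This promoter is also active in mouse neural progenitors. The labels do not give a tumor's site, nor say whether the neocortex samples are separate animals, so p-values measure the spread between these samples. GFAP and Ras were not analysed here.

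A miRNA guides the silencing machinery to messenger RNAs that pair with its seed, the bases near its 5′ end. miR-9 is made by dividing neural progenitors and by adult brain cells, and it represses Nr2e1 and Hes1, regulators that keep progenitors dividing, and the neuronal gene silencer Rest. miR-124 is a neuron-specific miRNA that represses non-neuronal genes, among them the splicing repressor Ptbp1 and the glial transcription factor Sox9. miR-7 represses Egfr in human glioblastoma cells and Pax6 in the mouse forebrain, and in brain it is bound by the circular RNA Cdr1as.

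Mature sequences from RefSeq (build GRCm38.p6) were matched to 3 of the 4 names, miR-9, miR-7a and miR-7b, through their 5p arms. They are shown to compare the seeds and to mark how little separates miR-7a from miR-7b. Capitals mark the seed, bases 2 to 8.
miR-9-5p: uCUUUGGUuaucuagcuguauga
miR-7a-5p: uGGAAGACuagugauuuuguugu
miR-7b-5p: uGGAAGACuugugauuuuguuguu
The same miR-9 sequence lies at 3 loci on the plus strand, Mir9-1 (chr3:88215613-88215635), Mir9-2 (chr13:83738821-83738843) and Mir9-3 (chr7:79505279-79505301). miR-7a comes from Mir7-1 on the minus strand (chr13:58392841-58392863) and Mir7-2 on the plus strand (chr7:78888295-78888317), and miR-7b from Mir7b on the plus strand (chr17:56243017-56243040). Mir7-2 and Mir9-3 lie 617 kb apart on chromosome 7. A probe for a mature miRNA cannot tell such loci apart. miR-7a and miR-7b share the seed GGAAGAC and are identical at 22 of 23 aligned bases. They differ by A10U, counted from 1 at the 5′ end with the base of miR-7a first, and by 1 extra base at the 3′ end of miR-7b, so some signal of one could be read by the probe of the other. Of the 442 panel probes with a RefSeq mature sequence, 0 outside these 2 had the miR-7 seed and 0 others had the miR-9 seed, CUUUGGU.

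The deposited values were normalized and on a log2 scale, from which whole counts could be recovered. miRNA counts summed to 23562 to 60829 per neocortex sample and 117610 to 208122 per tumor. A probe under a cutoff of its sample, 8 to 16 counts, was listed at 0, and the 4 miRNAs were above it in all 7 samples. Neocortex 1 differed from both other normal samples in part of the values, a comparison described after the values were seen. All 12 neuron-enriched miRNAs that were above the cutoff in every sample were lowest among the normal samples in neocortex 1, as were 100 of all 197 such miRNAs. The margin varied. miR-153 lay at 7.21, 8.57 and 8.72 in neocortex 1, 2 and 3. For others neocortex 3 lay beside neocortex 1 and neocortex 2 was high, as for miR-138 (8.41, 9.44 and 8.50) and miR-326 (5.65, 6.46 and 5.67). miR-204, which is abundant in choroid plexus and was picked here after its values were seen, lay at 12.65 in neocortex 1 against 9.10 and 9.64 in the other 2 and 9.72 to 10.84 in the tumors. Results are therefore also given without neocortex 1. The part of this difference in the results was not tested.

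miR-9 was higher in every tumor than in any neocortex sample. Its log2 values were 12.06, 12.01 and 11.93 in neocortex 1, 2 and 3, and 13.02, 13.56, 13.11 and 13.19 in tumor 1, 2, 3 and 4. The normal samples lay within 0.13 of each other, and tumor 2 was the highest of all. The neocortex mean was 12.00 ± 0.07 (SD, n = 3) and the tumor mean 13.22 ± 0.24 (SD, n = 4). miR-9 rose 2.33-fold, a log2 change of 1.22 (SE 0.19, Benjamini-Hochberg adjusted p = 0.0091 in limma, over the 283 miRNAs tested). It was the only 1 of the 4 past the test, where 17.7% of all tested miRNAs passed in either direction, 8.13% as higher and 9.54% as lower in tumor. By size its change ranked 66th from the top among all 283, a number that includes miRNAs listed at 0 in some neocortex samples, and 4th among the 197 above the cutoff in every sample. In every fit that left out 1 sample the change stayed between 1.11 and 1.29, with adjusted p of 0.0092 to 0.043 in limma. In bulk tissue, a change in the number of cells of a type and a change in RNA per cell cannot be told apart.

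Counts show the same miRNA without the authors' scaling, but they also follow the higher totals of the tumors. miR-9 gave 842 to 2389 counts in neocortex and 8644 to 17619 in the tumors. Of all miRNA counts it made up 3.76% ± 0.178 (SD, n = 3) in the normal samples and 8.68% ± 1.53 (SD, n = 4) in the tumors. The deposited values lie close to such shares, so a share restates the deposited change and is not a separate check of it. Among the 566 probes its signal ranked 7th, 5th and 7th in neocortex 1, 2 and 3, and 3rd, 1st, 3rd and 2nd in tumor 1, 2, 3 and 4. miR-9 gave the highest signal of any miRNA in tumor 2. Probes differ in efficiency, so a rank of signals is not a rank of molecules.

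miR-124 lay lower in every tumor than in any neocortex sample, by a margin set by neocortex 1. Its log2 values were 12.21, 13.07 and 12.92 in neocortex 1, 2 and 3, and 12.00, 11.74, 11.94 and 11.84 in tumor 1, 2, 3 and 4. The tumors were close together, and neocortex 1 lay nearer to them than to the other normal samples. Group means were 12.73 ± 0.46 (SD, n = 3) and 11.88 ± 0.11 (SD, n = 4). The log2 difference of -0.85 (SE 0.25, 95% interval -1.45 to -0.26) had an adjusted p = 0.060 in limma (Benjamini-Hochberg) and did not pass over all miRNAs tested. Groups did not overlap for 32.9% of all tested miRNAs, so the separation of miR-9 and miR-124 is shared by many others. Without neocortex 1 the difference was -1.12 and passed (limma, adjusted p = 0.0067 by Benjamini-Hochberg), where 16.3% of the tested miRNAs passed as lower. Without any other single sample it did not pass. Among the 197 miRNAs above the cutoff in every sample its change ranked 162nd from the top.

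The share of miR-124 among all miRNA counts averaged 6.45% ± 1.86 (SD, n = 3) over the normal samples and 3.40% ± 0.249 (SD, n = 4) over the tumors. Its counts were 1671 to 2921 in neocortex and 4263 to 6912 in the tumors, so the unscaled counts, which also follow the higher totals of the tumors, ran the other way from the share. Its signal ranked 5th, 2nd and 3rd in neocortex 1, 2 and 3 and 7th in each tumor.

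**Figure D1:**
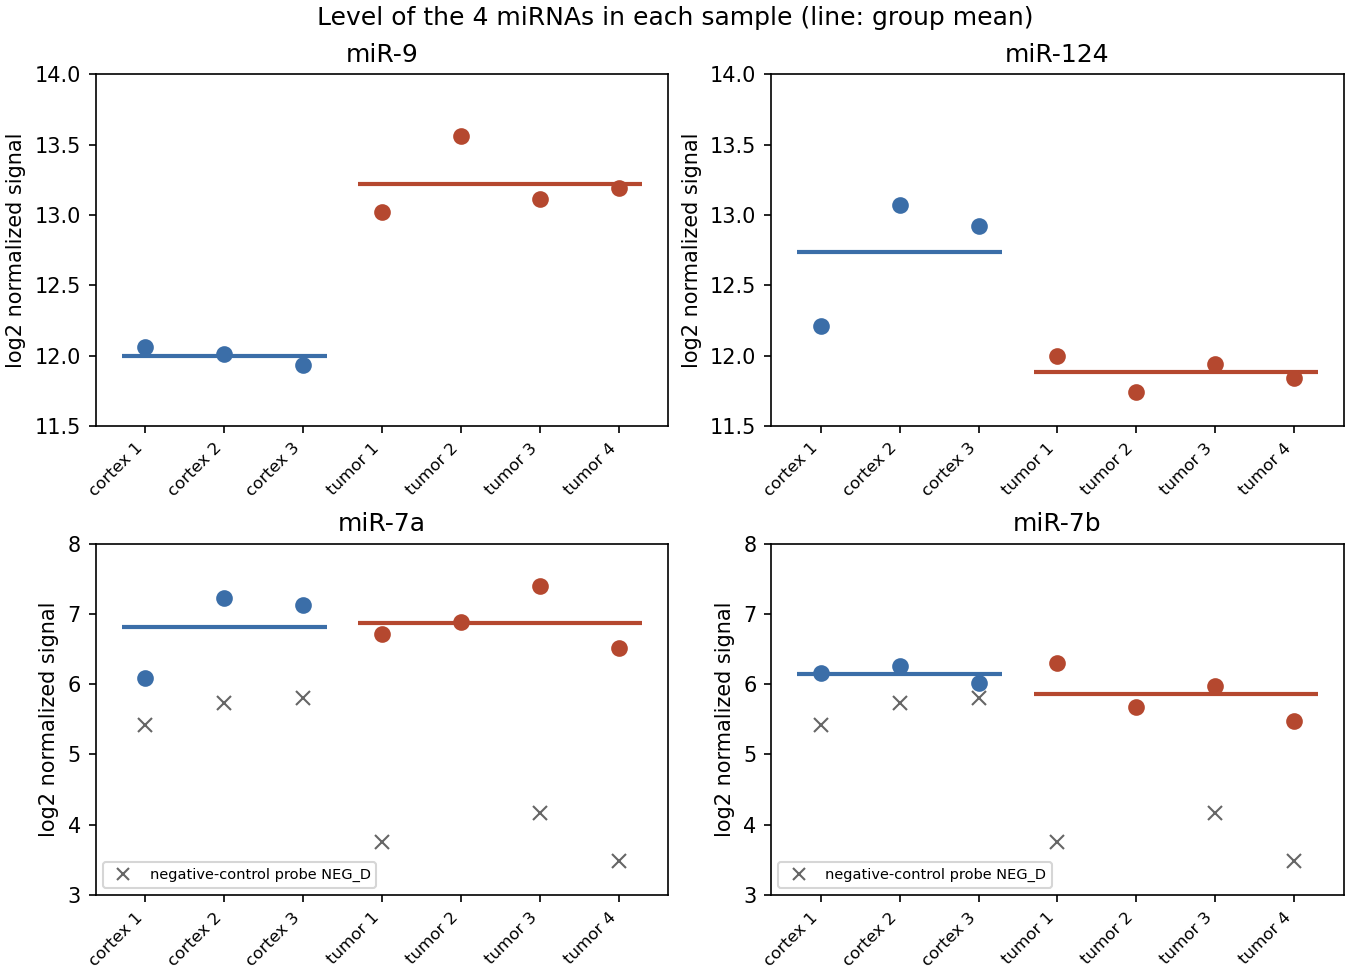
Deposited log2 normalized signal (vertical axis) of miR-9, miR-124, miR-7a and miR-7b in each of 3 neocortex (blue) and 4 tumor (red) samples, with a line at each group mean and crosses for the negative-control probe NEG_D where it was above the cutoff. miR-9 is at 13.02 or more in all tumors and at 12.06 or less in all neocortex samples, while the groups overlap for miR-7a and miR-7b.

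The difference between miR-9 and miR-124 within a sample does not move with that sample's scaling factor, and it changed sign between the groups. miR-9 minus miR-124 was -0.15, -1.06 and -0.99 on the log2 scale in neocortex 1, 2 and 3. It was 1.02, 1.82, 1.17 and 1.35 in tumor 1, 2, 3 and 4. miR-124 thus gave the higher signal in all 3 neocortex samples and miR-9 in all 4 tumors. As linear ratios, miR-9 stood at 0.901, 0.480 and 0.503 times miR-124 in neocortex and at 2.03, 3.53, 2.25 and 2.55 times in the tumors. The smallest ratio among tumors was that of tumor 1, from the youngest tumor-bearing mouse, and the largest that of tumor 2. With 1 tumor per age, age and sample cannot be told apart. Every tumor mouse was also older than the neocortex mice, so age cannot be told apart from group in any comparison here.

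Group means of this log2 difference were -0.73 ± 0.51 (SD, n = 3) and 1.34 ± 0.35 (SD, n = 4), so tumor exceeded neocortex by 2.07, a 4.21-fold shift of the ratio. The 2-sided exact permutation test gave p = 0.0286, the lowest value the 35 splits of 3 against 4 samples can give, and 0.057 after Benjamini-Hochberg adjustment over the 6 pairs of the 4 miRNAs. The shift was in the same direction in 4 of 4 tumors, yet it did not pass after adjustment, which with 3 of 6 pairs at the smallest p cannot go below that value. Without neocortex 1 it was 2.37, and without any other sample it was between 1.91 and 2.18.

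**Figure D2:**
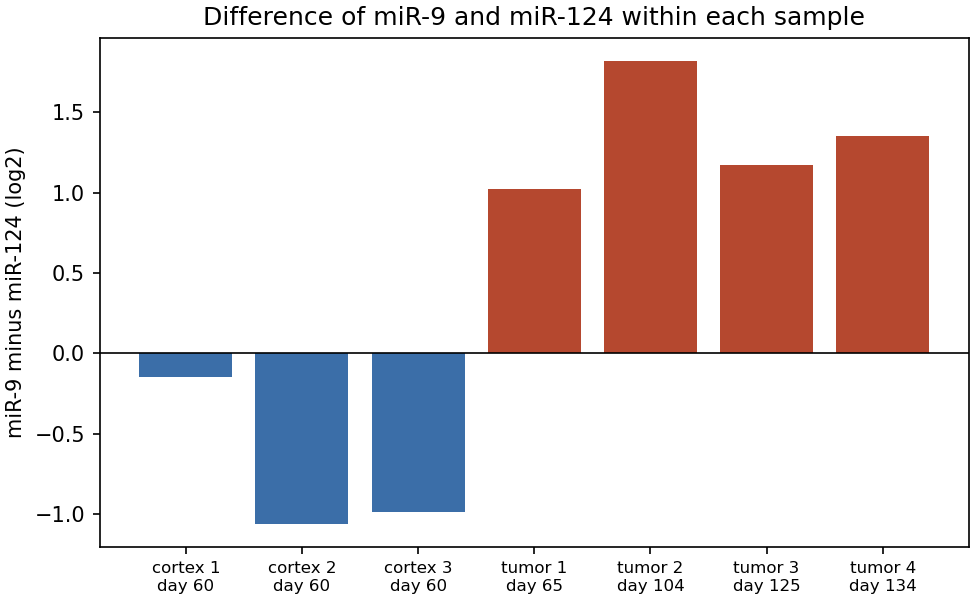
Difference of the deposited log2 values, miR-9 minus miR-124 (vertical axis), as 1 bar for each of the 3 neocortex (blue) and 4 tumor (red) samples with the postnatal day of the mouse. All 3 neocortex bars lie below 0, the nearest at -0.15 in neocortex 1, and all 4 tumor bars lie above 0, from 1.02 to 1.82.

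The other pairs were compared in the same way. miR-9 minus miR-7b was 1.51 higher in tumor on the log2 scale (2-sided exact permutation p = 0.0286, adjusted 0.057). miR-124 minus miR-7a was 0.91 lower, with a difference of -0.91 (2-sided exact permutation p = 0.0286, adjusted 0.057). miR-9 minus miR-7a differed by 1.16 (exact permutation p = 0.0857, adjusted 0.13), miR-124 minus miR-7b by -0.56 (exact permutation p = 0.171, adjusted 0.21) and miR-7a minus miR-7b by 0.35 (exact permutation p = 0.457, adjusted 0.46). None of the 6 passed at an adjusted p of 0.05.

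miR-7a showed no detectable difference. Its log2 values were 6.09, 7.23 and 7.12 in neocortex 1, 2 and 3, and 6.71, 6.88, 7.39 and 6.51 in tumor 1, 2, 3 and 4. The lowest value of all 7 was that of neocortex 1, and the groups overlapped. The means were 6.81 ± 0.63 (SD, n = 3) and 6.87 ± 0.38 (SD, n = 4), with a log2 difference of 0.06 (95% interval -0.81 to 0.93, limma, adjusted p = 0.90 by Benjamini-Hochberg). Without neocortex 1 the difference was -0.30 and without tumor 3 it was -0.11, and neither passed (limma, adjusted p = 0.40 and 0.83 by Benjamini-Hochberg).

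miR-7b was the faintest of the 4 and close to background in neocortex. Its log2 values were 6.16, 6.26 and 6.02 in neocortex 1, 2 and 3, and 6.30, 5.67, 5.97 and 5.48 in tumor 1, 2, 3 and 4. The groups overlapped, since tumor 1 was the highest sample and the other tumors lay below all normal ones. The difference of -0.29 (95% interval -0.87 to 0.28) had an adjusted p = 0.41 in limma (Benjamini-Hochberg).

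Depth limited both miR-7 probes. miR-7a rested on 30 to 51 counts per neocortex sample and 109 to 196 per tumor, and miR-7b on 14 to 40 and 70 to 84. In neocortex 3 the 14 counts of miR-7b have an exact 95% Poisson interval of 7.65 to 23.49, for counting error only. The negative-control probe NEG_D, which has no target in the sample, gave 12 counts there. On the log2 scale miR-7b exceeded NEG_D by 0.74, 0.53 and 0.22 in neocortex 1, 2 and 3 and by 1.80 to 2.55 in tumors 1, 3 and 4, while in tumor 2 NEG_D was listed at 0. miR-7a exceeded NEG_D by 0.67 to 1.50 in neocortex and miR-9 and miR-124 by 6.13 or more. With NEG_D subtracted, which moved the median of all tested miRNAs to 1.46, miR-7b turned to 1.36 and passed (limma, adjusted p = 0.046 by Benjamini-Hochberg), as did 43.1% of all tested miRNAs as higher, and miR-7a lay at 0.85 without passing. The direction of miR-7b therefore depends on the background that is taken off. The other 7 negative-control probes were listed at 0 in all neocortex samples.

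Directions of single miRNAs are relative to the scaling of the samples. A scaling factor shifts all miRNAs of a sample alike, so it cannot change the order of the 4. Quantile normalization could, and there miR-9 lay at 1.15, miR-7a at 0.14, miR-7b at -0.09 and miR-124 at -0.90, with miR-9 minus miR-124 at 2.05. With the positive-control probes as the scale, every member had a value above 0, miR-9 at 2.93 and miR-124 at 0.86, and the median of all tested miRNAs was 1.77. All 4 passed as higher there, as did 81.3% of all tested miRNAs, with miR-124 at an adjusted p = 0.014 in limma. Scaled on the housekeeping mRNA probes, miR-9 lay at 0.26 and did not pass (limma, adjusted p = 0.52 by Benjamini-Hochberg), miR-124 lay at -1.81 and the median at -0.95. The mRNA probes themselves lay higher in tumor on the deposited scale, with Actb at 8.40 to 8.87 in neocortex and 9.25 to 10.13 in tumor. Set against the median of all tested miRNAs on the deposited scale, miR-9 stood at 1.19, miR-124 at -0.88, miR-7a at 0.03 and miR-7b at -0.32. A change of scaling factor leaves these gaps nearly as they are by construction, but the set of miRNAs and the background move them. Against the median of -0.29 over the 197 miRNAs above the cutoff in every sample, the gaps in the same order were 1.51, -0.56, 0.35 and 0. With NEG_D subtracted they were -0.22, -2.3, -0.6 and -0.1.

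**Figure D3:**
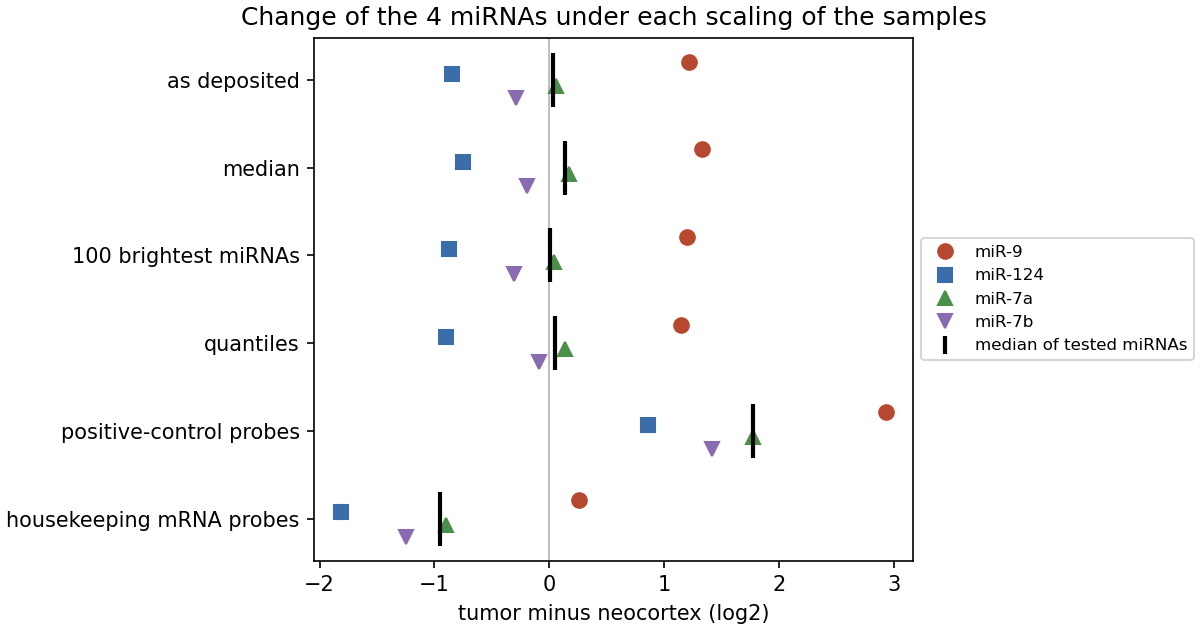
Log2 change of the 4 miRNAs, tumor minus neocortex (horizontal axis), under the deposited scaling and 5 other scalings of the samples (rows), with a black bar at the median of all tested miRNAs. The whole set shifts between scalings, from a median of -0.95 to 1.77, and the gaps between the 4 are fixed by construction except under quantiles.

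The miRNAs whose profiles over the 7 samples were most like those of the 4 were taken by Pearson correlation among the 197 miRNAs above the cutoff in every sample. These correlations describe 7 points that share the group difference and the sample scaling. For miR-9 they were the probe that reads both miR-106a and miR-17 (r = 0.94), miR-669f (r = 0.94) and miR-99b (r = 0.92). The miR-106a and miR-17 probe, which reads members of growth-promoting clusters, rose by 1.38 and miR-669f by 1.21 (limma, adjusted p = 0.0079 for each by Benjamini-Hochberg). For miR-124 they were miR-376a (r = 0.99), miR-384-3p (r = 0.97) and miR-409-5p (r = 0.95), with differences of -0.95, -0.77 and -0.97 that did not pass the test. miR-376a and miR-409-5p come from the imprinted Dlk1-Dio3 region, which is highly expressed in neurons. miR-376a had values of 8.07, 8.96 and 9.05 in neocortex 1, 2 and 3 and 7.52 to 7.94 in the tumors, with neocortex 1 again nearest the tumors. For miR-7a the closest were miR-541 (r = 0.91), miR-382 (r = 0.86) and let-7e (r = 0.84). miR-541 and miR-382 also come from the Dlk1-Dio3 region and differed by -0.20 and -0.16 without passing, so the region is not particular to the profile of miR-124. For miR-7b the closest were miR-378 (r = 0.94), miR-128 (r = 0.86) and miR-202-5p (r = 0.80).

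Most other neuron-enriched miRNAs that were tested lay on the side of miR-124. Of 16 on the list, 14 were tested, and 13 of these had a value below 0 and 1 above, with a median of -0.44. Of all tested miRNAs, whose median of 0.03 includes miRNAs listed at 0 in neocortex, 49.1% had a value below 0. Over miRNAs above the cutoff in every sample, the 12 neuron-enriched ones had a median of -0.46 with 12 below 0, and all 197 had a median of -0.29 with 68.0% below 0. In limma 0 were called higher and 0 lower, or 0 and 1 at an unadjusted p under 0.05. The member above 0 was miR-330, which was listed at 0 in neocortex 1 and 3. Of the 13 below 0, miR-485 was listed at 0 in neocortex 3 and tumor 3, so its sign is no firmer. The most abundant were miR-128, which restrains neuronal excitability and differed by -0.75, and miR-132, an activity-induced miRNA that differed by -0.56. miR-128 had values of 10.32, 10.88 and 10.59 in neocortex and 10.57, 9.60, 9.69 and 9.51 in tumors 1 to 4, so tumor 1 lay within the normal range. Among the other members, miR-218 differed by -0.62, miR-433 by -0.73 and miR-137 by -0.28. miR-134 and miR-212, at 0 in all neocortex samples, were too low to test. In the 4 tumors they were above the cutoff, at 3.84 to 4.85 and 3.67 to 4.53. As listed they go the other way from miR-124, but the neocortex cutoff was 4.65 to 5.21, so their direction cannot be read.

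miRNAs that steer neural progenitors included calls in both directions. Of 25 on the list, 21 were tested, 4 rose, 2 fell and 15 did not pass the test, with a median of 0.19. Over all tested miRNAs 8.13% were called higher and 9.54% lower, so the 2 of 21 that fell are a share near that background. All 21 were above the cutoff in every sample. When the 197 such miRNAs were fitted alone, 18 were called higher and 41 lower. No set test was run, so the 4 of 21 that rose are a description. Besides the miR-106a and miR-17 probe, those that rose were miR-19b at 1.11 and miR-93 at 0.87, which belong to the same cluster family, and miR-34a, a p53 target, at 1.12. The 2 that fell are known for driving oligodendrocyte precursors to mature, miR-219 at -2.19 and miR-338-3p at -2.08. The most abundant members, miR-125b-5p and let-7c, were at 0.25 and 0.14, short of the threshold. The 6 let-7 miRNAs on the list lay between -0.08 and 0.51.

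**Figure D4:**
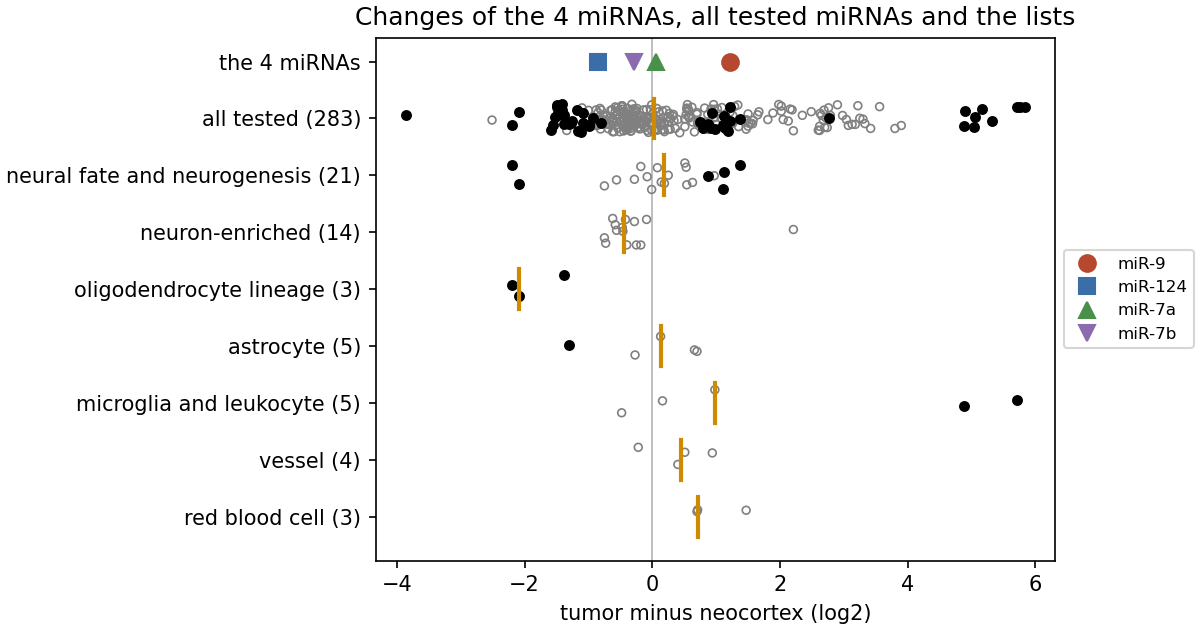
Log2 change, tumor minus neocortex (horizontal axis), of the 4 miRNAs, of all 283 tested miRNAs and of each list (number tested in brackets), with filled points for an adjusted p under 0.05 in limma and an orange bar at each median. miR-9 lies at 1.22, to the right of 13 of 14 neuron-enriched miRNAs, and miR-124 at -0.85 lies to the left of all 14.

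Markers of other cell types also moved between the groups, and their part in the results above was not tested. Shares of 8.13% called higher and 9.54% called lower over all tested miRNAs stand beside the counts below. All 3 oligodendrocyte-lineage miRNAs fell. They are miR-219 and miR-338-3p, already counted in the neural progenitor list, and miR-338-5p, the other arm of miR-338. Their summed level on the log2 scale was 12.55 to 12.91 in the normal samples and 9.97 to 11.18 in the tumors. Of 5 astrocyte-enriched miRNAs 0 rose in limma, with an unadjusted p under 0.05 for 2 higher ones, and 1, miR-23b, fell by 1.31, with a summed level of 13.22 to 13.54 in neocortex and 13.73 to 14.07 in tumor. Of 6 microglia and leukocyte miRNAs 5 were tested, and miR-142-3p and miR-146a were called higher against values listed at 0. miR-142-3p was at 0 in neocortex 2 and 3 and at 4.93 in neocortex 1, miR-146a was at 0 in all 3 and passed the filter only through the tumors, and miR-142-5p was at 0 in every sample. The cutoff lay at 4.65 to 5.21 in neocortex and 3.09 to 3.78 in tumor. With all values raised to 5.21, miR-142-3p rose by 1.31 and miR-146a differed by 0.51 without passing (adjusted p = 0.021 and 0.092 by limma). The summed level of this list was 8.72 to 9.06 in neocortex and 8.87 to 9.96 in tumor. None of the 4 vessel or 3 red blood cell miRNAs passed limma, where an unadjusted p under 0.05 was reached by 1 and 0, with summed levels of 10.23 to 10.59 and 8.07 to 8.51 in neocortex and of 10.67 to 11.66 and 8.63 to 9.40 in tumor. The neuronal markers miR-128, miR-137 and miR-138 were present in all 7 samples, with a summed level of 10.97 to 11.74 in neocortex and 10.44 to 11.29 in tumor, so the tumor samples also held neuronal miRNAs.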

How the data were processed

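The deposited file holds log2 values, 1 column per sample, normalized by the authors, and how this was done is not given in the sources used. As linear values, the low ones were multiples of a single unit per sample (100% of the 151 to 264 values checked, up to 60 counts, tolerance 0.02 plus rounding), which gave counts, with a rounding error of up to 0.347% for bright probes. Probes under 8 to 16 counts were listed at 0. Shares use these counts. The unit per count fell as the total of miRNA counts rose, from 4.64 at 23562 counts in neocortex 3 to 0.53 at 208122 in tumor 4. Deposited values therefore lie close to shares of all miRNA counts, and a change in them is close to a change in share. limma 3.58.1 in R 4.3.3 (lmFit, eBayes, 2-sided, no covariate) compared tumor with neocortex on the log2 values of 283 miRNAs with a mean of at least 2.80, the median over all 566, with Benjamini-Hochberg adjustment over all of them. The fit was also run on values simulated for the 197 miRNAs above the cutoff in every sample. That run does not cover miRNAs listed at 0 in some samples, which the main fit includes. Differences between members were tested by exact permutation. Named miRNAs are the 4 members, the 3 most alike of each, the 2 most abundant and all called members of each list, plus list members that complete a count. Those, miR-204, the comparison of neocortex 1 with the other normal samples and the NEG_D alternative were chosen after their values were seen. Members and lists were chosen with earlier results of these data known. Alternatives covered scaling, filters, background, pseudocount, fit, sex, replicate block and left-out samples. Samples of the same number, 1 to 3, showed no clear pairing between the groups (correlations of deviations -0.18, 0.25 and 0.13). These 3 values are too few to settle whether the numbers pair the samples.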

Additional observations from a re-analysis of the deposited data

Results flagged for a closer look

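In the tumor group of 4, a single sample lay far from the other 3 for 5 of 33 sets of values examined, where chance gives about 1 in 20. In each of the 5 it was tumor 1, from the mouse at postnatal day 65. It was high for miR-128 (10.57 against 9.51 to 9.69, gap 0.830 of the range), miR-126-3p (11.11 against 10.20 to 10.33, gap 0.857), miR-142-3p (7.33 against 6.18 to 6.30, gap 0.896) and miR-155 (8.16 against 6.70 to 6.88, gap 0.877). It was low for miR-146a (5.26 against 5.82 to 5.91, gap 0.862). miR-9, miR-124, miR-7a, miR-7b and their differences were not among the 5. Without tumor 1, miR-9 changed by 1.29 (limma, adjusted p = 0.038 by Benjamini-Hochberg) and miR-9 minus miR-124 by 2.18 (exact permutation p = 0.10, the lowest value 3 against 3 samples can give).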

How the results depend on the processing

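With 3 against 4 samples, scaling and single samples limit the calls. Apart from single samples left out, 15 alternatives were run on miR-9, which kept its direction in all and its call in 13. The exceptions were housekeeping probes (0.26) and the replicate block (1.23, adjusted p = 0.13 in limma). Whether the numbers used for the block pair the samples is not known. miR-124 passed on housekeeping probes (-1.81), above the cutoff in all samples, raised to the highest cutoff, with a pseudocount of 10, with trend and robust and with NEG_D subtracted (-0.85 each, adjusted p = 0.017 to 0.046 in limma), and passed in the other direction, at 0.86, on positive-control probes (adjusted p = 0.014 in limma). Leaving out 1 sample put miR-9 at 1.11 to 1.29, miR-124 at -1.12 to -0.69, miR-7a at -0.30 to 0.27 and miR-7b at -0.44 to -0.17. On positive-control and housekeeping probes miR-7a lay at 1.77 and -0.90 and miR-7b at 1.42 and -1.25, all past the test, and with NEG_D subtracted miR-7b at 1.36. miR-9 minus miR-124 was 1.75 in males alone, where 2 against 3 samples cannot pass, and 1.91 to 2.37 without 1 sample. With NEG_D subtracted miR-124 minus miR-7b went to -2.21 (exact permutation p = 0.0286), miR-124 minus miR-7a to -1.70 and miR-9 minus miR-7a to 0.38, miR-9 minus miR-7b turned to -0.13 and miR-7a minus miR-7b to -0.51, the latter between -0.02 and 0.57 without 1 sample. Higher and lower calls were 23 and 27 as deposited, 230 and 0 on positive-control probes (0 lower also at an unadjusted p), 8 and 136 on housekeeping probes, 67 and 33 with no filter, 18 and 41 above the cutoff in all samples, 15 and 25 with sex, 21 and 6 in males, 5 and 0 with the block (31 lower at an unadjusted p), 122 and 11 with NEG_D subtracted, and 9 to 35 and 8 to 46 without 1 sample.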
